A study of Mus musculus with 10 samples.

Results

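The 10 genes described here belong to glycolysis and to the cellular response to low oxygen, and were taken by name from the deposited table of macrophage RNA sequencing: Hif1a, Egln3, Slc2a1, Hk2, Pfkfb3, Pgk1, Eno1, Ldha, Vegfa and Bnip3. Each of them had 1 row among the 17279 genes listed. The libraries came from lamina propria macrophages, sorted as CX3CR1-GFP+ cells from the mucosa of the small intestine of C57BL6/J mice, 24 h after surgery. In 5 libraries the mice had been sham-operated, and in 5 libraries they had undergone permanent middle cerebral artery occlusion (pMCAO), a model of stroke without reperfusion. Both groups had surgery, so no library represents an unoperated mouse. The labels give neither age nor sex, and they name the genotype C57BL6/J although the sort relied on a green fluorescent reporter in the Cx3cr1 gene, which monocytes and some other leukocytes of the gut also use. The library names of replicate 1 in both groups carry the word pool, and the others do not.

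Hif1a encodes the oxygen-regulated subunit of hypoxia-inducible factor 1. In normal oxygen, prolyl hydroxylases such as the Egln3 product mark this protein for degradation, so that its activity is set largely at the protein level and only partly by its transcript. When oxygen falls, or when macrophages are activated by bacterial products, the stabilised factor binds short hypoxia response elements and raises transcription of glucose transporters, glycolytic enzymes, Vegfa and Bnip3. Macrophages that produce inflammatory cytokines rely on this glycolytic programme, whereas resident tissue macrophages depend more on oxidative metabolism.

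Of the 10 genes, 0 differed between post-stroke and sham-operated mice at a false discovery rate (FDR) of 0.05 in the quasi-likelihood test of edgeR, and 0 had an unadjusted p under 0.05. Over all 16949 genes tested, 0.0% were called at that FDR and 4.71% had an unadjusted p under 0.05. All 10 genes passed the filter on low counts. The pMCAO estimate was above sham for 5 genes and below it for 5, with a median log2 fold change of -0.0034 beside -0.0059 over all genes. In none of the 10 did the libraries of the groups separate without overlap, which happened in 0.985% of the genes tested. The largest differences in estimate were those of Egln3 and Vegfa, the genes with the fewest counts, and the smallest unadjusted p was that of Slc2a1 (0.0703). The sections of values that follow give each gene in every library on the scale of CPM, the counts of a gene relative to the library total, after TMM scaling, a correction of library totals for composition.

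Libraries differed in depth in a way that went with the groups. Sham libraries held 18894151 to 60665972 counts, with a median of 33913980, and pMCAO libraries 6430643 to 28672285, with a median of 11605371. The difference of the mean log2 totals was -1.18 (pMCAO minus sham, two-sided exact permutation p = 0.0476), and with any 1 library left out p lay between 0.0317 and 0.119 and was under 0.05 in 3 of 10 cases. The cells carried the markers of macrophages, whose 10 fixed markers summed to 3145 to 8482 CPM in sham and 4436 to 9644 CPM in pMCAO libraries, led by the complement gene C1qb. Markers of B and plasma cells were also abundant and variable, with sums of 823 to 24750 CPM in sham and 1128 to 27280 CPM in pMCAO libraries, of which Jchain was the largest part. Sums were highest in replicate 2 of both groups and lowest in sham replicate 4, pMCAO replicate 3 and pMCAO replicate 4. None of the 9 marker lists differed between the groups past an adjusted p of 0.05 in exact permutation tests (all 0.968). Xist was high in sham replicate 5 and pMCAO replicate 4 and low in the other 8 libraries.

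The level of a gene per length, in CPM per kb of merged exons, set the genes in a clear order at the top. Ldha had the highest mean level at 68.7 CPM per kb, followed by Hif1a at 34.9, and these 2 genes kept that order in 10 of 10 libraries. Hif1a was above Pfkfb3 (11.2 CPM per kb) in 10 of 10 libraries as well. Pfkfb3 was above Hk2 (9.57 CPM per kb) in 8 of 10 libraries, while Hk2 exceeded Eno1 (7.65) and Eno1 exceeded Slc2a1 (6.52) in only 6 of 10 each. These neighbours therefore overlapped within the spread of the libraries, as did Slc2a1 and Bnip3 (5.00 CPM per kb, 7 of 10) and Bnip3 and Pgk1 (3.71, 7 of 10). Vegfa (1.12 CPM per kb) and Egln3 (0.697) were at the foot of the order, with Pgk1 above Vegfa in 9 of 10 and Vegfa above Egln3 in 8 of 10 libraries. The levels of Pgk1 and Eno1 carry an added uncertainty from near-identical gene copies, described with those genes. Places in the order also depend on the length used. Merged exons of Eno1 hold 5379 bases and its longest protein-coding transcript 2027, against 5969 and 5513 for Hk2. The place of Eno1 below Hk2 therefore rests on the use of merged exons. So does its place below Pfkfb3, for which these lengths are 7561 and 4801 bases.

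**Figure D1:**
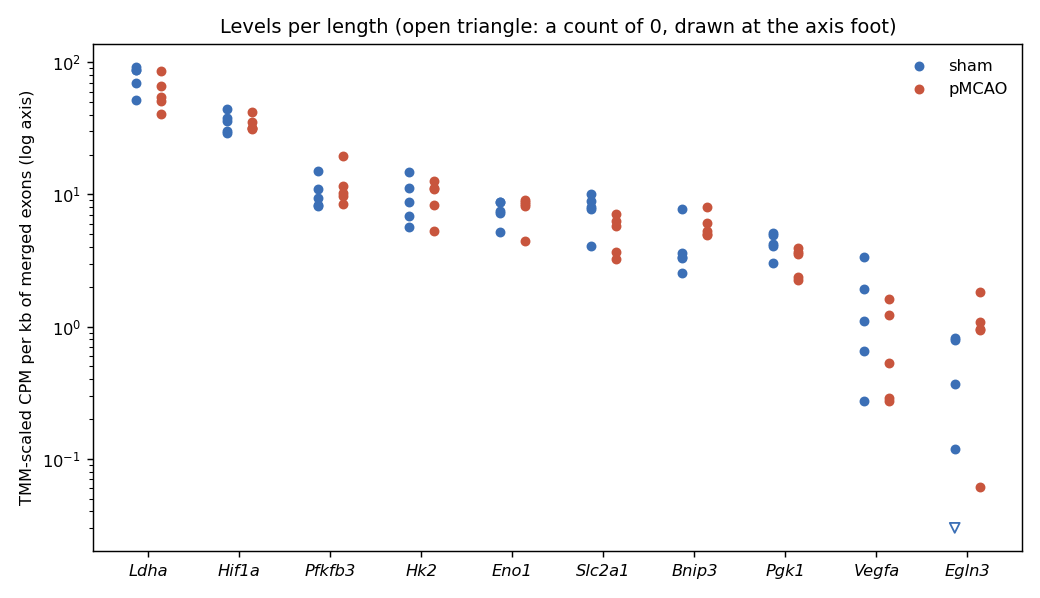
Levels of the 10 genes in TMM-scaled CPM per kb of merged exons on a log axis, one point per library, with sham in blue and pMCAO in red. Ldha and Hif1a lie above the other genes in every library, and the open triangle marks the sham library with a count of 0 for Egln3.

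Among the regulators, Hif1a (ENSMUSG00000021109, chromosome 12, 73901375 to 73947530, plus strand, GRCm38) was at 172, 223, 262, 212 and 177 CPM in sham replicates 1 to 5. In pMCAO replicates 1 to 5 it was at 247, 184, 187, 189 and 208 CPM. It had the narrowest spread of the 10 genes, with a highest-to-lowest ratio of 1.52, and the groups overlapped over most of their range. Between the groups, the log2 fold change was -0.044 (SE 0.160, 95% interval -0.391 to 0.304, edgeR FDR 0.980). This interval, the tightest of the set, runs from 23.7% lower to 23.4% higher.

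Egln3 (ENSMUSG00000035105, chromosome 12, 54178981 to 54203860, minus strand), which encodes the prolyl hydroxylase PHD3 and is itself induced by hypoxia, was near the limit of detection. The sham libraries held 28, 68, 11, 0 and 162 counts, and the pMCAO libraries 33, 77, 25, 2 and 78 counts. The count of 0 in sham replicate 4 allows up to 0.189 CPM (3 counts, counting error only). Scaled levels were 0.978, 2.20, 0.317, 0 and 2.10 CPM in sham and 4.84, 2.89, 2.53, 0.164 and 2.55 CPM in pMCAO replicates 1 to 5. Of the 5 pMCAO libraries, 4 thus lay above all 5 sham libraries, and pMCAO replicate 4 lay below all sham libraries other than replicate 4. A log2 fold change of 1.19 was estimated, with an SE of 0.993 and a 95% interval of -0.968 to 3.35 (edgeR FDR 0.922), too wide to place the difference on either side of 0.

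**Figure D2:**
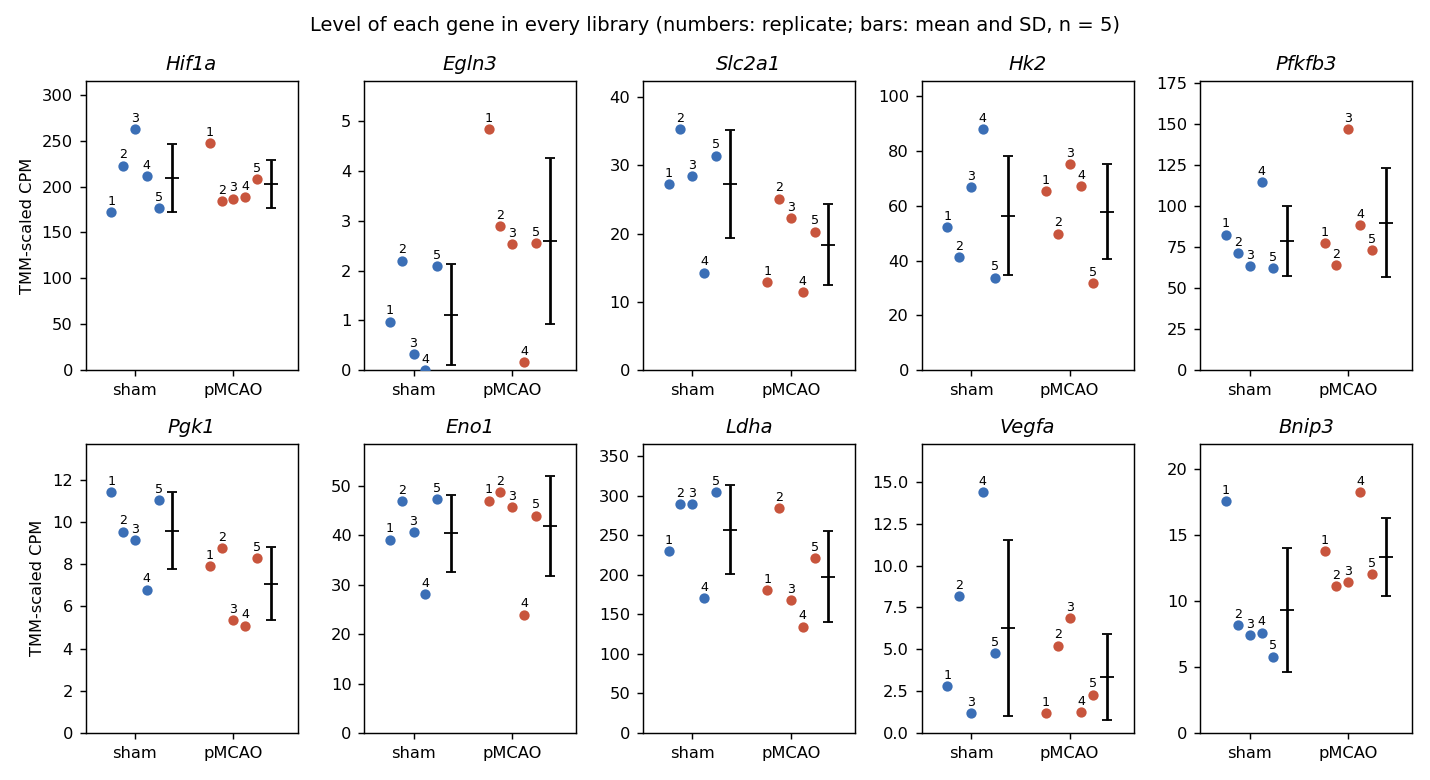
TMM-scaled CPM of each gene in every library on linear axes from 0, with replicate numbers beside the points and bars for the mean and SD of 5 libraries (lower bars end at 0). Slc2a1, Pgk1 and Ldha have lower pMCAO means with overlapping points, and Bnip3 has 1 high sham library, replicate 1.

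Slc2a1 (ENSMUSG00000028645, chromosome 4, 119108711 to 119137983, plus strand) encodes GLUT1, the main glucose transporter of activated macrophages. It was at 27.2, 35.3, 28.4, 14.3 and 31.4 CPM in sham replicates 1 to 5 and at 12.9, 25.1, 22.2, 11.4 and 20.3 CPM in pMCAO replicates 1 to 5. All 5 pMCAO libraries were below the sham mean of 27.3 ± 7.93 CPM (SD, n = 5), and the groups overlapped through sham replicate 4 alone. For the group difference, the log2 fold change was -0.57 (SE 0.287, 95% interval -1.19 to 0.055) with an edgeR FDR of 0.922. Without sham replicate 4 it was -0.74 with an unadjusted p of 0.0121 and an FDR of 0.708 in the edgeR fit. Without pMCAO replicate 2, which was the highest of its group, the unadjusted p was 0.038 and the edgeR FDR 0.670. Without the 2 libraries with high Xist the log2 fold change was -0.39 and the unadjusted edgeR p 0.241.

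Hk2 and Pfkfb3 act at regulated steps of glycolysis. Hk2 (ENSMUSG00000000628, chromosome 6, 82725025 to 82774454, minus strand) encodes the inducible hexokinase, which traps glucose in the cell. It was at 52.2, 41.1, 66.9, 87.9 and 33.8 CPM in sham and 65.2, 49.8, 75.3, 67.2 and 31.7 CPM in pMCAO replicates 1 to 5, with replicate 5 lowest in both groups. The log2 fold change was 0.037 (SE 0.289, 95% interval -0.591 to 0.665, edgeR FDR 0.993), and its sign turned when single libraries were left out.

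Pfkfb3 (ENSMUSG00000026773, chromosome 2, 11471433 to 11554077, minus strand) makes fructose 2,6-bisphosphate, the activator of phosphofructokinase. Its level was 82.5, 71.2, 63.3, 114 and 62.3 CPM in sham and 77.5, 63.7, 147, 88.1 and 73.3 CPM in pMCAO replicates 1 to 5. The highest value of each group was in a library with few B and plasma cell markers, sham replicate 4 and pMCAO replicate 3. Its log2 fold change was 0.19 (SE 0.249, 95% interval -0.349 to 0.732, edgeR FDR 0.945) and was -0.062 without pMCAO replicate 3.

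The enzymes of the lower pathway were Pgk1, Eno1 and Ldha. Pgk1 (ENSMUSG00000062070, chromosome X, 106187100 to 106203699, plus strand) encodes phosphoglycerate kinase, which yields the first ATP of the pathway. It was at 11.4, 9.54, 9.13, 6.79 and 11.03 CPM in sham and 7.92, 8.75, 5.36, 5.09 and 8.28 CPM in pMCAO replicates 1 to 5. All 5 pMCAO libraries lay below the sham mean of 9.58 ± 1.83 CPM (SD, n = 5), again with sham replicate 4 as the only sham library inside the pMCAO range. The log2 fold change was -0.44 (SE 0.278, 95% interval -1.04 to 0.168, edgeR FDR 0.922).

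Eno1 (ENSMUSG00000063524, chromosome 4, 150236721 to 150248879, plus strand), the gene for alpha-enolase, was at 39.1, 46.9, 40.6, 28.1 and 47.3 CPM in sham. In pMCAO replicates 1 to 5 it was at 47.1, 48.8, 45.7, 24.0 and 44.0 CPM. Apart from the lowest library of each group, sham replicate 4 and pMCAO replicate 4, its values stayed between 39.1 and 48.8 CPM. Its log2 fold change was 0.051 (SE 0.219, 95% interval -0.425 to 0.527, edgeR FDR 0.986).

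Both counts depend on how reads from gene copies were handled. Of all 100-base windows of the longest protein-coding transcript, 67.0% for Pgk1 and 59.0% for Eno1 also occur in transcripts of other genes in GENCODE M21. For Pgk1 the closest copy was Pgk1-rs7, at 0.499 CPM in the sham and 0.342 CPM in the pMCAO mean. For Eno1 the closest copy was Eno1b, at 4.66 and 4.30 CPM. Reads of both could be shared, discarded or split by the counting, which was not stated in the sources used here. With the copies that the table lists added to each gene, the log2 fold changes were -0.44 for Pgk1 and 0.018 for Eno1. Any reads discarded in the counting would be missing from these sums as well. Windows were shared for 9.41% of Bnip3, 1.28% of Ldha and 1.12% of Hif1a, and for none of the other 5 genes. Other genes of the table that share windows were Gm4735, with 43.3% of those of Eno1, Gm16439, with 6.94% of those of Bnip3, and Ldha-ps2, with 0.466% of those of Ldha. Of the further copies that had been listed, Ldhc was at 0.276 and 0.697 CPM and Gm2423 at 6.49 and 5.19 CPM in the sham and pMCAO means, and neither shared a window with any of the 10.

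Ldha (ENSMUSG00000063229, chromosome 7, 46841475 to 46855627, plus strand) encodes the lactate dehydrogenase subunit that favours lactate formation, and was the most abundant of the 10 genes. It was at 230, 290, 290, 171 and 305 CPM in sham and 181, 284, 168, 134 and 221 CPM in pMCAO replicates 1 to 5. Only pMCAO replicate 2 exceeded the sham mean of 257 ± 56.1 CPM (SD, n = 5), and only sham replicate 4 fell among the low pMCAO libraries. The log2 fold change was -0.38 (SE 0.224, 95% interval -0.866 to 0.109, edgeR FDR 0.922). It was -0.55 without pMCAO replicate 2 (unadjusted p 0.0252, edgeR FDR 0.656) and -0.20 without the 2 libraries with high Xist (unadjusted p 0.395).

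Vegfa and Bnip3 are targets of hypoxia-inducible factor outside glycolysis. Vegfa (ENSMUSG00000023951, chromosome 17, 46016993 to 46032369, minus strand) encodes the angiogenic growth factor. Its level was 2.79, 8.18, 1.18, 14.4 and 4.75 CPM in sham and 1.17, 5.22, 6.87, 1.23 and 2.29 CPM in pMCAO replicates 1 to 5, from 8 to 367 counts. The highest and lowest of the 10 libraries thus differed by 12.3 times, and the log2 fold change of -0.89 had an SE of 0.693 and a 95% interval of -2.39 to 0.620 (edgeR FDR 0.922). It was -0.34 without sham replicate 4, the highest library.

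Bnip3 (ENSMUSG00000078566, chromosome 7, 138890836 to 138909519, minus strand) encodes a mitochondrial protein that promotes mitophagy. It was at 17.6, 8.18, 7.43, 7.61 and 5.795 CPM in sham and 13.8, 11.2, 11.4, 18.3 and 12.1 CPM in pMCAO replicates 1 to 5. Of the 5 sham libraries, 4 lay below every pMCAO library, and the exception was sham replicate 1, one of the 2 whose names say pool. The log2 fold change was 0.52 (SE 0.323, 95% interval -0.186 to 1.22, edgeR FDR 0.922). Without sham replicate 1 it was 0.88, with an unadjusted p of 0.00718 and an edgeR FDR of 0.986, and without both pools it was 0.87 with an unadjusted p of 0.0159. In the other direction, it was 0.24 without the 2 libraries with high Xist (edgeR FDR 0.999). No fit called the gene.

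**Figure D3:**
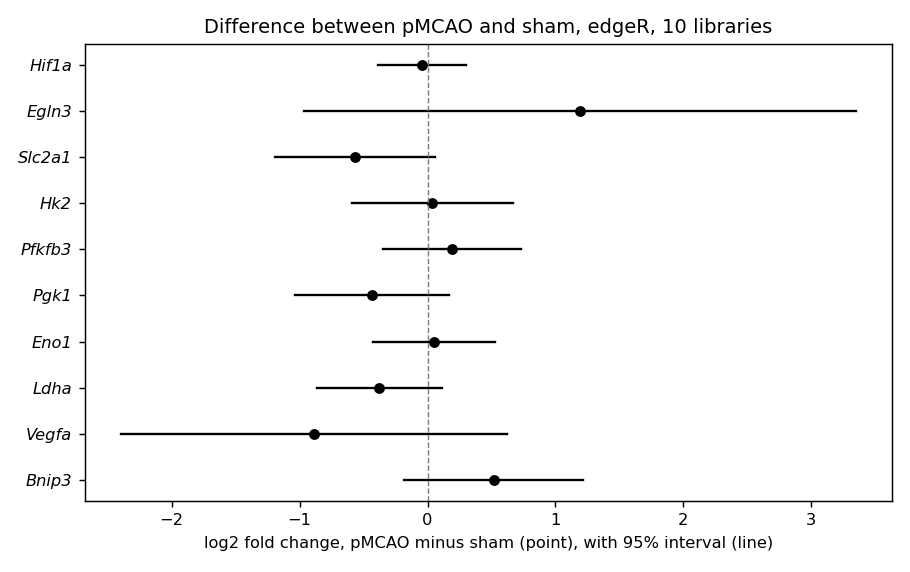
Log2 fold change of pMCAO against sham for the 10 genes from edgeR, with 95% intervals over 10 libraries. Every interval includes 0, from the narrow one of Hif1a (-0.391 to 0.304) to the wide one of Egln3 (-0.968 to 3.35).

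A ratio between paralogs within a library does not depend on scaling, and 6 such ratios were examined with an exact permutation test, two-sided over 252 assignments of the libraries. None passed an adjusted p of 0.05. Ldha exceeded Ldhb, the subunit that favours pyruvate, by 6.22 ± 0.461 on the log2 scale in sham and 5.87 ± 1.29 in pMCAO libraries (SD, n = 5, exact permutation p = 0.579). Hif1a exceeded Epas1, which encodes HIF-2 alpha, by 3.59 ± 1.35 and 4.63 ± 1.84 (exact permutation p = 0.373), with 7.77 in pMCAO replicate 3 as the highest value. The difference was 0.25 without that library. These ratios are of counts and were not divided by length. The log2 ratio of Slc2a1 to Slc2a3 (GLUT3) was 1.01 ± 0.863 in sham and 0.450 ± 1.09 in pMCAO (p = 0.341, exact permutation), and that of Hk2 to Hk1 was 1.49 ± 0.891 and 1.63 ± 0.838 (p = 0.810, exact permutation). Bnip3 stood below its relative Bnip3l by -3.31 ± 0.462 and -2.92 ± 0.368 (exact permutation p = 0.190). Egln3 was far below Egln1, the main oxygen sensor of this family, with log2 ratios of -6.28 ± 2.18 in sham and -4.41 ± 1.72 in pMCAO libraries (exact permutation p = 0.167, adjusted p = 0.559). The sham mean includes sham replicate 4 at -9.71, where Egln3 had 0 counts, so that this value is set by the 0.5 added to each count, and the other 4 sham libraries ran from -7.05 to -4.38. Without sham replicate 4 the difference of the means went from 1.87 to 1.02 (exact permutation p = 0.325), and with 2 added to each count it was 1.59 (exact permutation p = 0.103). In the pMCAO group replicate 4 was apart at -7.37, and without it the difference was 2.61 with an unadjusted exact permutation p of 0.0397.

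Other genes of these pathways were read from lists. Of 26 further glycolysis genes, 25 were tested and 0 were called, with estimates higher in 10 and lower in 15 and a median log2 fold change of -0.085. Slc16a3, the lactate exporter MCT4, had a log2 fold change of -1.08 (unadjusted p 0.0413, edgeR FDR 0.922) with means of 5.18 ± 2.12 CPM in sham and 2.45 ± 1.24 CPM in pMCAO libraries. It was the only gene of this list with an unadjusted p under 0.05, a share near the 4.71% of all genes. Pdk1, the kinase that keeps pyruvate out of mitochondria, had a log2 fold change of 0.55 (unadjusted p 0.0511), Pfkm, a phosphofructokinase subunit, 1.06 (0.0727) and Aldoa, an aldolase, -0.30 (0.118).

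Of 15 gene symbols of oxygen sensing and HIF function, 13 were present in the deposited table. Of these, 12 were tested and 0 were called, 7 with higher and 5 with lower estimates and a median log2 fold change of 0.093. The smallest unadjusted p in each direction belonged to Hif3a (0.0615), an inhibitory relative of Hif1a with 0 to 190 counts per library, and Epas1 (0.253). Cited2, a competitor of HIF for its co-activators, had a log2 fold change of 0.28 (unadjusted p 0.263) and Egln1 one of -0.13 (0.587). The co-activator genes Ep300 and Crebbp and the HIF partner Arnt were all detected, at sham means of 409, 295 and 60.3 CPM.

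Of 35 symbols of further hypoxia targets, among them Ero1l and Ero1a for the same gene, 30 were present in the deposited table. Of these, 28 were tested and 0 were called, 13 with higher and 15 with lower estimates and a median log2 fold change of -0.082. In 2 of the 28 the groups did not overlap. The list was chosen with earlier results of these data known, so this count beside the shares of all genes is no test of it. Angptl4, a secreted inhibitor of lipoprotein lipase that fasting and PPAR ligands also induce, was at 3.26 ± 1.06 CPM in sham and 9.45 ± 3.18 CPM in pMCAO libraries (SD, n = 5, log2 fold change 1.53, unadjusted p 0.000977, edgeR FDR 0.922). Every pMCAO library was above every sham library for 0.448% of all genes, and below for 0.537%. The latter held for Fam162a, a mitochondrial protein gene, with 24.1 ± 2.87 and 15.4 ± 3.93 CPM (log2 fold change -0.65, unadjusted p 0.0141, edgeR FDR 0.922). Plin2, a lipid droplet coat protein gene, had a log2 fold change of 0.55 (unadjusted p 0.0670) and Jmjd6, a hydroxylase gene, -0.37 (0.0708). The 2 list members with unadjusted p under 0.05 thus had opposite signs.

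The 10 genes did not vary as one block over the libraries. Of 45 pairs, 23 had a positive and 22 a negative correlation of log2 CPM, and 3 passed an adjusted permutation p of 0.05 for Pearson's r. Slc2a1 and Ldha had r = 0.882 (n = 10, permutation p = 0.00091, adjusted 0.0369) and Spearman's rho = 0.891 (permutation p = 0.00133, adjusted 0.0240). Ldha and Pgk1 had r = 0.849 (permutation p = 0.00164, adjusted 0.0369) and rho = 0.879 (permutation p = 0.00160, adjusted 0.0240). Without the 2 libraries farthest from the median of the first gene these r were 0.813 and 0.717, and over deviations from the group means they were 0.840 and 0.792. Eno1 and Egln3 had r = 0.874 (permutation p = 0.00305, adjusted 0.0458) and rho = 0.782 (permutation p = 0.0104, adjusted 0.0936), with low values of both in sham replicate 4 and pMCAO replicate 4. Its r was 0.784 without the 2 farthest libraries. Pfkfb3 ran the other way from Ldha, with r = -0.738 (permutation p = 0.00982, adjusted 0.110) and rho = -0.891 (permutation p = 0.00108, adjusted 0.0240). When the 2 libraries with high Xist were left out, 0 of 45 pairs passed, with r at 0.797 for Slc2a1 with Ldha, 0.717 for Ldha with Pgk1 and 0.941 for Eno1 with Egln3 over the remaining 8 libraries. Correlations within single groups of 5 libraries are not given.

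**Figure D4:**
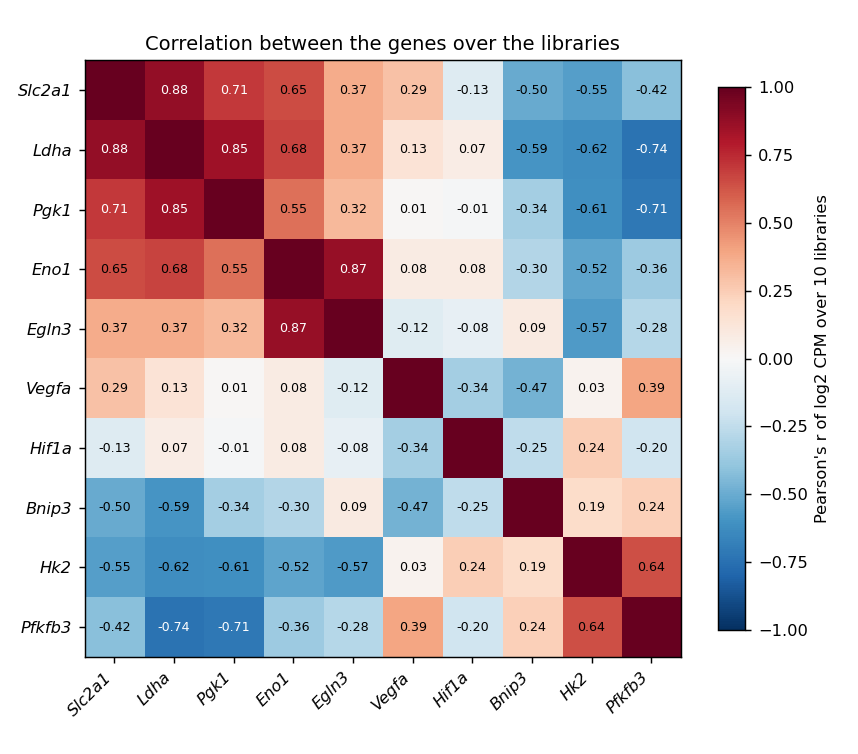
Pearson's r of log2 CPM between the 10 genes over 10 libraries, red for positive and blue for negative values. Slc2a1, Ldha, Pgk1 and Eno1 have positive r with each other, and Hk2 and Pfkfb3 have positive r with each other (0.64) and negative r with those genes.

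Slc2a1, Ldha and Pgk1 also followed the depth of the libraries, a relation examined after the values were seen. Against log2 total counts, r was 0.828 for Ldha (n = 10, permutation p = 0.00278, adjusted over 10 genes 0.0269) and 0.806 for Slc2a1 (permutation p = 0.00538, adjusted 0.0269). The corresponding rho were 0.891 and 0.867, each with an adjusted permutation p of 0.0101. For Pgk1 r was 0.722 (permutation p = 0.0195, adjusted 0.0650) and rho 0.830 (permutation p = 0.00464, adjusted 0.0155). Without the 2 libraries farthest from the median depth, r was 0.915, 0.892 and 0.896 for Ldha, Slc2a1 and Pgk1. Since the pMCAO libraries were shallower as a group, the lower pMCAO means of these 3 genes and the lower depth cannot be told apart in this design. Pfkfb3 had rho = -0.782 (permutation p = 0.0102, adjusted 0.0255) and r = -0.575 (permutation p = 0.0832, adjusted 0.139). Depth also ran with Hk2 at r = -0.636 (permutation p = 0.0491, adjusted 0.123). For Bnip3 r was -0.595 (permutation p = 0.0703, adjusted 0.139) and rho -0.636 (permutation p = 0.0545, adjusted 0.109). The higher pMCAO mean of Bnip3 and the lower depth cannot be told apart either.

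**Figure D5:**
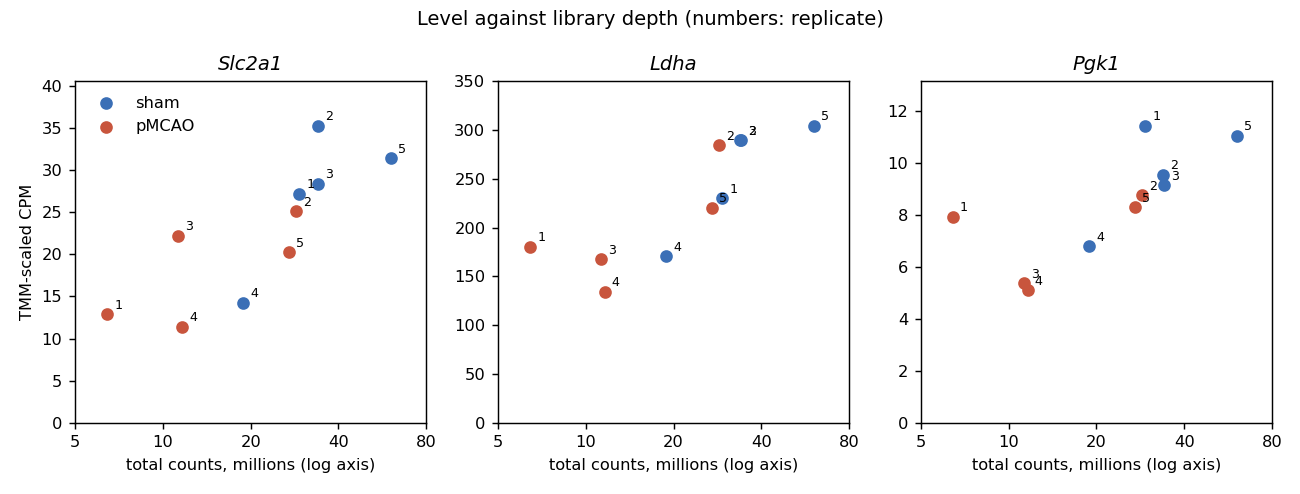
TMM-scaled CPM of Slc2a1, Ldha and Pgk1 against total counts per library on a log axis, with sham in blue, pMCAO in red and replicate numbers beside the points. The 4 shallowest libraries, with 3 of the pMCAO group and sham replicate 4, hold the low values of Ldha, between 134 and 181 CPM.

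Markers of cell types moved with some of the genes, and these 90 relations were likewise chosen after the values were seen. In these bulk libraries, fewer cells of a type and less RNA per cell cannot be told apart. Of these, 6 relations passed an adjusted permutation p of 0.05 for r, and 4 of them, all of Hk2, passed it for rho as well. The level of Hk2 ran with the summed macrophage markers over the libraries (r = 0.894, n = 10, adjusted permutation p = 0.0126, rho = 0.939, adjusted permutation p = 0.00840). Its r with the neutrophil list was 0.927 (adjusted permutation p = 0.00810), a list in which Mmp9 was most abundant and S100a8 and Retnlg were at 0 in some libraries. With the dendritic cell list r was -0.926 (adjusted permutation p = 0.00810) and with the endothelial list -0.849 (adjusted permutation p = 0.0238). Irf4 led the dendritic cell list at a mean of 116.5 CPM. The endothelial list was led by Pecam1 at 51.5 CPM, beside sums of 37.9 to 103 CPM in sham libraries, and Kdr and Egfl7 were at 0 in some libraries. These relations are with summed lists, and single markers were not tested. Leaving out the 2 farthest libraries gave 0.810, 0.880, -0.859 and -0.954 for these 4 lists. Pfkfb3 followed Hk2 in sign, with r = -0.811 for the dendritic cell list (adjusted permutation p = 0.0285) and -0.865 for the endothelial list (0.0250), without passing for rho.

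Against the B and plasma cell markers, r was 0.740 for Ldha (permutation p = 0.0176, adjusted 0.132), 0.661 for Eno1 (permutation p = 0.0381, adjusted 0.186) and 0.648 for Pgk1 (permutation p = 0.0434, adjusted 0.186), none past the adjustment. T cell markers, whose summed level differed by -0.33 on the log2 scale (pMCAO minus sham, exact permutation p = 0.111), had r = 0.732 with Ldha (permutation p = 0.0128, adjusted 0.115) and rho = 0.818 (permutation p = 0.00560, adjusted 0.0840). With Slc2a1 they had r = 0.688 (permutation p = 0.0248, adjusted 0.159) and rho = 0.806 (permutation p = 0.00724, adjusted 0.0931), with Pgk1 r = 0.641 (permutation p = 0.0449, adjusted 0.186) and with Hk2 r = -0.738 (permutation p = 0.0119, adjusted 0.115). None of these passed the adjustment either. The T cell list was led by Cd4 at a mean of 140.7 CPM. Its sums were 203 to 411 CPM in sham and 195 to 278 CPM in pMCAO libraries. Single markers of the list were not tested, so the part of T cells in these sums is not known. With the level of the B and plasma cell markers as a covariate, chosen after the values were seen, the log2 fold change of Ldha was -0.38 with an unadjusted edgeR p of 0.0304 and an FDR of 0.759, and that of Slc2a1 was -0.51 (unadjusted p 0.0643). The part of other cells in the levels of the 10 genes was not tested beyond this.

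Genes whose log2 CPM ran most closely with 3 of the members were sought among 9043 genes with a mean of at least 10 CPM, as a description over 10 libraries. For Hif1a they were Stat2 (r = 0.919), Brca2 (0.893) and Pcca (0.893). For Slc2a1 they were Crip1 (0.963), Rpl18 (0.959) and S100a10 (0.958), and for Ldha Eif4a-ps4 (0.968), Hspa4 (0.963) and Dnajc14 (0.962). The points share depth and library composition.

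The promoters of Ldha, of Slc2a1 and Pgk1, which each correlated with it over all 10 libraries, and of Bnip3, whose groups overlapped through 1 sham library, are shown for the core of the hypoxia response element, to which HIF binds. The core was searched as ACGTG or GCGTG on either strand, so that on the printed strand it also reads CACGT or CACGC, and a palindromic CACGTG counts as 2 overlapping cores. Each sequence is the 250 bases before the RefSeq start site on GRCm38.p6, 5′ to 3′ on the strand of the gene, with cores in capitals. They lie at chr4:119108495-119108744 on the plus strand for Slc2a1, chr7:46845554-46845803 on the plus strand for the first listed start of Ldha, chr7:46846832-46847081 on the plus strand for its second, chrX:106186850-106187099 on the plus strand for Pgk1 and chr7:138909507-138909756 on the minus strand for Bnip3.
Slc2a1: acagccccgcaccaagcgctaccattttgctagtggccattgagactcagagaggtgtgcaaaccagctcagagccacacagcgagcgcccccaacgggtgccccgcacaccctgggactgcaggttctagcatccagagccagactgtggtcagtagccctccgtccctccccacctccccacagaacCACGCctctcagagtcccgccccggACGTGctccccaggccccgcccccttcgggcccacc
Ldha first start: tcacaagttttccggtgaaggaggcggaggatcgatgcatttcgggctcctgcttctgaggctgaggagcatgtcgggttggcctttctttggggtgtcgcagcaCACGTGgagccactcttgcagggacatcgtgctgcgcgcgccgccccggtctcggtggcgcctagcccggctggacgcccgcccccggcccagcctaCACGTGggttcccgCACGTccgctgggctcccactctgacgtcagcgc
Ldha second start: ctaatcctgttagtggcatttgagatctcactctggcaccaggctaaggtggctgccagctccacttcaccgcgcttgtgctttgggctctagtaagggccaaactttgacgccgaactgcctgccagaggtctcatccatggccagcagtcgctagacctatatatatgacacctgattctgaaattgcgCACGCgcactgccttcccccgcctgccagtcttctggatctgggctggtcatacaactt
Pgk1: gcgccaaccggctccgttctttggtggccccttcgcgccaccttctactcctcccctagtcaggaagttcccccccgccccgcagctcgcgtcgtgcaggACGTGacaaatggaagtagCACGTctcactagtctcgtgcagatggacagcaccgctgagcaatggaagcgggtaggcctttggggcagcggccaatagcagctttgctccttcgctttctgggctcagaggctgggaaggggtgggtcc
Bnip3: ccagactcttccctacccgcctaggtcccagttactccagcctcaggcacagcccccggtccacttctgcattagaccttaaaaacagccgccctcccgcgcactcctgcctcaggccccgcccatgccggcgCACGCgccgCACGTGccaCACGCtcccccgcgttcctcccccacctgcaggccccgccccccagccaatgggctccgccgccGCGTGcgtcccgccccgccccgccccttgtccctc
The Slc2a1 and Pgk1 windows held 2 cores each, and the Bnip3 window 5. Of the Ldha windows, the first held 5 cores and the second 1. The 50 bases after the start were found unbroken near the beginning of a GENCODE M21 transcript of the gene for each printed window apart from the first of Ldha. RefSeq lists 15 windows for the 10 genes, of which 14 held at least 1 core (93.3%), and the exception was the first window of Vegfa. At least 1 core was in 38.6% of all 32851 RefSeq windows of the same length, and in at least 1 window of 59.2% of the 10487 tested genes that have one. The 10 genes were chosen as genes of glycolysis and the response to low oxygen, so their share beside these is no test of enrichment. The match is of letters and is no evidence of binding in these cells.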

How the data were processed

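RNA of sorted lamina propria macrophages was sequenced after ribosomal RNA removal (Trio kit, NextSeq, paired ends) in 5 sham and 5 pMCAO libraries, which the labels call biological replicates. The authors deposited raw counts, as whole numbers, and CPM values that equal these counts divided by the total over the listed genes. The deposited table also holds the authors' own comparison (log2 fold change, mean expression, p-value and FDR), which was not used. The submitters' processing notes name GRCm38, STAR, featureCounts and limma, while strandedness and the handling of reads from gene copies were not given in the sources used here. Each of the 17279 listed genes had at least 10 counts in at least 2 libraries.

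Counts of all genes were filtered with filterByExpr (16949 kept), TMM-scaled, and tested in edgeR 4.0.16 (quasi-likelihood, R 4.3.3) without covariates and with Benjamini-Hochberg adjustment over all genes. Alternatives used DESeq2 1.42.0, limma-voom (limma 3.58.1), other scalings and filters, a replicate block, and libraries left out. Ratios used counts plus 0.5. Correlations had 100000 permutations. Exon lengths came from GENCODE M21. The fits were tested on simulated data, and no pair of libraries agreed within sampling noise. Besides the 10 genes, the text names up to 2 genes per list and direction by unadjusted p, paralogs and near copies, the 3 genes closest to Hif1a, Slc2a1 and Ldha, and the leading or zero marker of a list. List members were matched by symbol, and those missing from the deposited table under that symbol or removed by the filter on low counts were not tested. The members and lists were chosen with earlier results of these data known. Same-numbered libraries did not deviate together in every pair (mean correlation 0.197), and the labels state no pairing, so the main fit left the numbers out. A fit with the replicate number as a block is given below.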

Additional observations from a re-analysis of the deposited data

Results flagged for a closer look

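Within each group of 5, the highest and the lowest library were examined on the log2 scale, and the distance to the next library was set against the whole range, with 0.71 as the limit. Of 32 groups of 5 libraries examined (10 genes and 6 ratios), 5 had a library past this limit, where chance marks about 1 in 20 independent groups. These groups are not independent, since each ratio contains 1 of the 10 genes and the same libraries recur. Slc2a1 in sham replicate 4 was low (0.712 of the range), at 14.3 CPM beside 27.2 to 35.3 CPM in the other sham libraries. Eno1 in pMCAO replicate 4 was low (0.855), at 24.0 CPM beside 44.0 to 48.8 CPM. Egln3 in the same library was low as well (0.790) and rested on 2 counts, and its ratio to Egln1 there gave 0.743. The Hif1a to Epas1 ratio was high in pMCAO replicate 3 (0.712), where Epas1 had 8 counts. Sham replicate 4 and pMCAO replicate 3 also had few B and plasma cell markers (823 and 1128 CPM), as did pMCAO replicate 4 (1360 CPM), which was one of the 2 libraries with high Xist. Whether these features bear on the distant values was not tested.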

How the results depend on the processing

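None of the 10 genes was called at an FDR of 0.05 under any alternative: other scalings, filters, limma-voom, DESeq2, libraries left out, and the added covariate or summed copies, the last 2 chosen after seeing the data. Over all genes, DESeq2 called 3 (0.0177%), and every other fit called 0. With 5 libraries a group and as few as 6430643 counts, differences of the size seen here could not be told from the spread of the libraries.

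No direction changed for Slc2a1, Ldha, Pgk1, Vegfa, Bnip3 or Egln3. The log2 fold change of Hk2 turned to -0.035 without both pools and -0.16 without the 2 libraries with high Xist, and that of Eno1 to -0.0047 without both pools. With each library left out in turn, the log2 fold change ranged from -0.13 to 0.050 for Hif1a, -0.11 to 0.24 for Hk2, -0.062 to 0.35 for Pfkfb3 and -0.064 to 0.19 for Eno1. Without the 2 libraries with high Xist, the difference in log2 ratio turned to -0.31 for Hk2 to Hk1 and 0.060 for Ldha to Ldhb. That of Egln3 to Egln1 became 3.09 (unadjusted exact permutation p = 0.0286). This setting drops pMCAO replicate 4, at -7.37, and keeps sham replicate 4, at -9.71, where Egln3 had 0 counts. With single libraries left out, the difference in log2 ratio ranged from -0.10 to 0.50 for Hk2 to Hk1, -0.88 to -0.29 for Slc2a1 to Slc2a3 and -0.81 to -0.046 for Ldha to Ldhb. It ranged from 0.25 to 1.51 for Hif1a to Epas1, 0.25 to 0.57 for Bnip3 to Bnip3l and 1.02 to 2.61 for Egln3 to Egln1. The last was lowest without sham replicate 4 and highest without pMCAO replicate 4. For summed markers these ranges were -0.12 to 0.29 (macrophage), -0.29 to 0.19 (monocyte), -0.22 to 0.33 (neutrophil), -0.79 to 0.44 (B and plasma cell), -0.41 to 0.021 (endothelial), -0.30 to 0.75 (stromal), -0.34 to 0.13 (dendritic cell), -0.91 to -0.096 (epithelial) and -0.44 to -0.18 (T cell) on the log2 scale, the T cell list with an unadjusted exact permutation p of 0.0317 without sham replicate 4. The pairs of genes past an adjusted p of 0.05 went from 3 to 0 without the 2 libraries with high Xist. The cause of these changes was not tested.

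With the replicate number as a block, 0 genes were called and 1303 had an unadjusted p under 0.05, against 799 without it. In this edgeR fit the log2 fold change was -0.57 for Slc2a1 (unadjusted p of 0.0142, FDR 0.634) and -0.39 for Ldha (0.0201, FDR 0.634). Correlations of same-numbered libraries ran from -0.0055 to 0.372 with a mean of 0.197, and not every library correlated best with its own number. The labels share numbers without shown pairing, and whether the numbers mark pairs is not known.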
